A study of Mus musculus with 12 samples.

Results

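Apolipoproteins are the protein components of lipoproteins, the particles that carry cholesterol and triglycerides in the blood. The 10 liver apolipoprotein genes described here, Apoa1, Apoa2, Apoa4, Apoa5, Apob, Apoc1, Apoc2, Apoc3, Apoe and Apoh, were taken by gene symbol from a table of 50686 mouse genes, and all 10 were among the 14248 genes that passed the filter on low counts. The study lowered Eif3m, a subunit of the translation initiation factor complex eIF3, in the livers of FVB/N mice aged 6 to 8 weeks. Small interfering RNA (siRNA) in lipid nanoparticles was injected into the tail vein at 0.5 mg/kg, at 1 injection in 5 days. The 4 groups of 3 libraries each were livers that received luciferase siRNA, labelled as a scrambled control, or Eif3m siRNA, taken at day 9 or at day 13. All groups thus shared the strain, the carrier and the dose. The nanoparticles deliver siRNA to the whole liver, and the RNA came from ground tissue, so no cell type was separated. The labels call the 3 libraries of a group replicates and name no animals, so the tests here reflect the spread among libraries, which may be technical.

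The liver makes most circulating apolipoproteins and releases them on very low density lipoprotein (VLDL) and high density lipoprotein (HDL). Apob is the structural protein around which a VLDL particle is built. Apoa1 and Apoa2 are the main proteins of HDL, Apoe is the ligand by which remnant particles are taken up through receptors, and the small exchangeable proteins set how fast lipoprotein lipase, the enzyme that clears triglycerides from plasma, can work: Apoc2 and Apoa5 favour it, while Apoc3 and Apoc1 restrain it.

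Eif3m itself fell at both days. Its mean level was 44.8 ± 0.684 CPM (counts scaled to each library's size; SD, n = 3) in day 9 controls and 4.79 ± 0.0859 with the siRNA, 10.7% of control, and 36.4 ± 4.56 against 2.37 ± 0.167 at day 13, 6.53% of control (log2 fold change -3.23 and -3.94, adjusted p = 1.92e-09 and 2.66e-09 by edgeR). Total counts ran from 38783564 to 54538581 per library at day 9 and from 7650269 to 9630027 at day 13. Per the labels, day 9 libraries were made with KAPA mRNA capture and day 13 libraries with Neoprep, so day and library kit cannot be told apart. Of the day 13 libraries, control 3 and Eif3m siRNA 2 stood apart from the others of their group, with values that rose with transcript length, and results that rest on them are given with and without them. In bulk tissue, fewer cells of a type and less RNA per cell cannot be told apart.

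Eif3m knockdown was followed by lower levels of several apolipoprotein transcripts. At day 9 Apoa2 and Apoc3 fell, to 46.3% and 51.0% of control. At day 13 Apoa2, Apoa4, Apoa5, Apoc2, Apoc3 and Apoe fell, with Apoa5 at 31.5% and Apoc3 at 36.5% of control. Apob, the VLDL scaffold, was not called at either day, at 125% and 109% of control. The test throughout was edgeR's quasi-likelihood test on counts, with Benjamini-Hochberg adjustment over all 14248 genes, and a gene was called at an adjusted p under 0.05.

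At day 9, 2 of 10 members were called and both were lower, where 12.8% of all genes tested were called, 5.94% higher and 6.84% lower. No member was called higher by edgeR, DESeq2 or limma-voom, and 0 were higher at an unadjusted p under 0.05, with 5 lower at that level. The median log2 fold change of the members was -0.41, beside 0.02 over all genes tested, and 9 of 10 values were negative. At day 13, 6 of 10 were called, all lower, where 23.7% of all genes were called, 12.8% higher and 10.9% lower, and the median was -0.63 beside 0 over all genes. Without the 2 libraries that stood apart, a setting chosen after the data were seen, 5 members were called at day 9 and 7 at day 13. At day 9 the count of 2 was 4 with DESeq2 and 4 with limma-voom. At day 13 the count of 6 was 7 with DESeq2, 5 with limma-voom and 4 with that day fitted alone. Over all genes, calls at day 9 moved from 1821 to 2599 with DESeq2, 2749 with limma-voom and 3050 of 15591 without the 2 libraries. At day 13 they moved from 3377 to 3806 with DESeq2 and 2718 with limma-voom. They were 2014 of 11964 with that day fitted alone and 3118 of 15591 without the 2 libraries that stood apart.

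**Figure D1:**
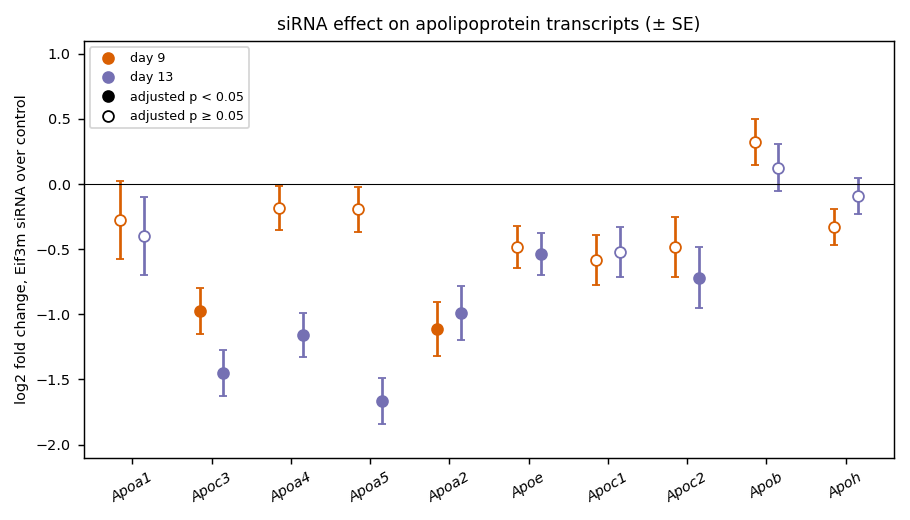
The log2 fold change of each apolipoprotein transcript, Eif3m siRNA over control, at day 9 (orange) and day 13 (purple), with bars of ± 1 SE from the edgeR fit and filled points where the adjusted p was under 0.05. The 2 filled day 9 points are Apoa2 at -1.11 and Apoc3 at -0.97, and the lowest day 13 point is Apoa5 at -1.67.

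The sequences upstream of 3 of the genes are shown because they stand for the patterns described below: Apoa5 fell most at day 13 and was not called at day 9, Apoa2 fell at both days, and Apoe is the most abundant member per base of principal transcript. Each run is the 200 bases before the RefSeq start site, 5′ to 3′ on the gene's strand, from RefSeq promoters of build GRCm38.p6, where 8 of the 10 members had an entry (not Apoc1 and Apoc3). The windows are chr9:46268433-46268632 on the plus strand for Apoa5, chr1:171224854-171225053 on the plus strand for Apoa2 and chr7:19699189-19699388 on the minus strand for Apoe. Capitals mark a match to the TATA box letters TATAAA.
Apoa5: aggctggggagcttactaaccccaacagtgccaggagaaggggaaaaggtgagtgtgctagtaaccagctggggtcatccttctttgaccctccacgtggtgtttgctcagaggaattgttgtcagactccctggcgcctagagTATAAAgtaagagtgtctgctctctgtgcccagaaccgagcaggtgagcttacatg
Apoa2: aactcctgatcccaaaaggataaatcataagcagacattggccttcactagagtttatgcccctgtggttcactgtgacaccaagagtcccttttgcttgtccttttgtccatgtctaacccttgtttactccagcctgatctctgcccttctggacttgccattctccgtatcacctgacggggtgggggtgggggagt
Apoe: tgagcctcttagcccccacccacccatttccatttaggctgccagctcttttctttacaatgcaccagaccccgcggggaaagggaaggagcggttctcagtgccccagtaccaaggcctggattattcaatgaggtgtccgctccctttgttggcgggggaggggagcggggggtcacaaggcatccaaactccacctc
Both strands of the 250 bases before each start were searched for 3 motifs, chosen after the members' values were seen. TATAAA was found 56 bases before the start of Apoa5, 60 before that of Apob and 212 before that of Apoa2, which lies outside the run shown, and 12.4% of 32851 promoters of that length held it. An HNF4 site written as CAAAGTCCA, held by 0.384% of promoters, and the element TGATGNAA bound by CHOP and ATF4, held by 3.45%, had no match in these 8 windows. These matches describe letters and not bound sites.

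Apoa5, Apoc3, Apoa4 and Apoa1 lie side by side on chromosome 9 (mm10, GENCODE M21 models). Apoa1 spans chr9:46228580-46230466 on the plus strand, Apoc3 chr9:46232933-46235636 on the minus strand, Apoa4 chr9:46240696-46243459 on the plus strand and Apoa5 chr9:46268633-46271919 on the plus strand. In this cluster Apoc3 fell at both days, Apoa4 and Apoa5 fell at day 13, and Apoa1 was not called, and differences between these genes were compared only as ratios, given below.

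Apoa5 is a scarce plasma protein that promotes lipolysis of triglyceride-rich particles. In day 9 controls its level was 1371, 1432 and 1304 CPM, and with Eif3m siRNA it was 1335, 946 and 1308. In day 13 controls it was 1643, 1321 and 1234 CPM, and with Eif3m siRNA 429, 541 and 353. The groups overlapped at day 9, where only siRNA library 2 was low, and did not at day 13, where every siRNA library was less than all controls. On the log2 scale the siRNA effect was -0.19 (SE 0.17, adjusted p = 0.512 by edgeR) at day 9 and -1.67 (SE 0.18, adjusted p = 2.8e-05 by edgeR) at day 13, from group means of 1399 ± 216 and 441 ± 94.3 CPM (SD, n = 3). The effect differed between the days by -1.47 (SE 0.25, adjusted p = 0.00916 by edgeR), a call that held in all 23 alternatives run.

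Apoa4 is a lipid-binding protein of HDL and chylomicrons. It stood at 418, 518 and 406 CPM in day 9 controls and at 405, 367 and 409 with the siRNA. At day 13 it stood at 705, 591 and 511 CPM in controls and at 306, 202 and 302 with the siRNA. As with Apoa5, the day 9 groups overlapped and all day 13 siRNA libraries were below all controls. Fitted over all libraries, the effect (log2) was -0.18 (SE 0.17, adjusted p = 0.519 by edgeR) at day 9 and -1.16 (SE 0.17, adjusted p = 0.000289 by edgeR) at day 13. The difference between days of -0.98 (adjusted p = 0.0472 by edgeR) was close to the threshold: it was lost in 13 of 23 alternatives, where leaving out single libraries moved the adjusted p between 0.0314 and 0.114, and it was lost without any 1 of the 6 day 9 libraries, day 13 control 1 or 2, or day 13 siRNA 1 or 3. Apoa4, Apoa1 and Apob are also intestinal products, and of 7 intestinal markers Cdx1, Cdx2 and Sis were at 0 CPM in every group and Muc2 in both control groups. The 7 summed to 54.6 to 63.4 CPM in day 9 controls and 55.4 to 77.5 with the siRNA, and to 18.6 to 37.4 against 27.4 to 33.1 at day 13, most of it the fatty acid binding protein Fabp2, at 55.7 CPM in day 9 controls. Of the 7, only Fabp2 and Lgals4 were tested and neither was called, and their part in the members' results was not tested. Exons of Apoa4 overlap the antisense genes Gm10680 and Gm47528, and those of Apoa5 overlap the antisense gene Gm47544. These were at 7.18, 1.07 and 4.72 CPM in day 9 controls. At day 13 Gm10680 was at 37.4% of control (adjusted p = 0.0373 by edgeR) and Gm47544 at 4.68% (adjusted p = 0.00321 by edgeR), from 3 to 7 counts per control library to 0 to 1. The counting is not stated to use strand, so reads of these pairs cannot be told apart.

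Apoc3 inhibits lipolysis and remnant uptake, and it lies between Apoa1 and Apoa4. Its control libraries at day 9 held 1538, 1647 and 1509 CPM and the siRNA libraries 843, 680.2 and 868. At day 13 the controls held 2738, 2325 and 1791 CPM and the siRNA libraries 931, 647 and 925. The groups were separate at both days, and siRNA library 2 was the lowest each time. The fitted log2 effect was -0.97 (SE 0.17, adjusted p = 0.00309 by edgeR) at day 9 and -1.45 (SE 0.18, adjusted p = 7.5e-05 by edgeR) at day 13, and both calls held in all 24 alternatives. The difference between days was -0.48 and was not called (adjusted p = 0.323 by edgeR).

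Apoa1 organises HDL and activates the enzyme that esterifies its cholesterol. It stood at 5502, 5408 and 5097 CPM in day 9 controls and at 5646, 3400 and 4159 with the siRNA. At day 13 it stood at 7446, 6799 and 4619 CPM in controls and at 6475, 2496 and 5323 with the siRNA. The groups overlapped at both days, siRNA library 2 was low at both, and day 13 control 3 was the lowest control. The log2 fold change of -0.28 (SE 0.30, adjusted p = 0.599 by edgeR) at day 9 and of -0.40 (SE 0.30, adjusted p = 0.372 by edgeR) at day 13 did not pass the test, and this standard error was the largest among the members.

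**Figure D2:**
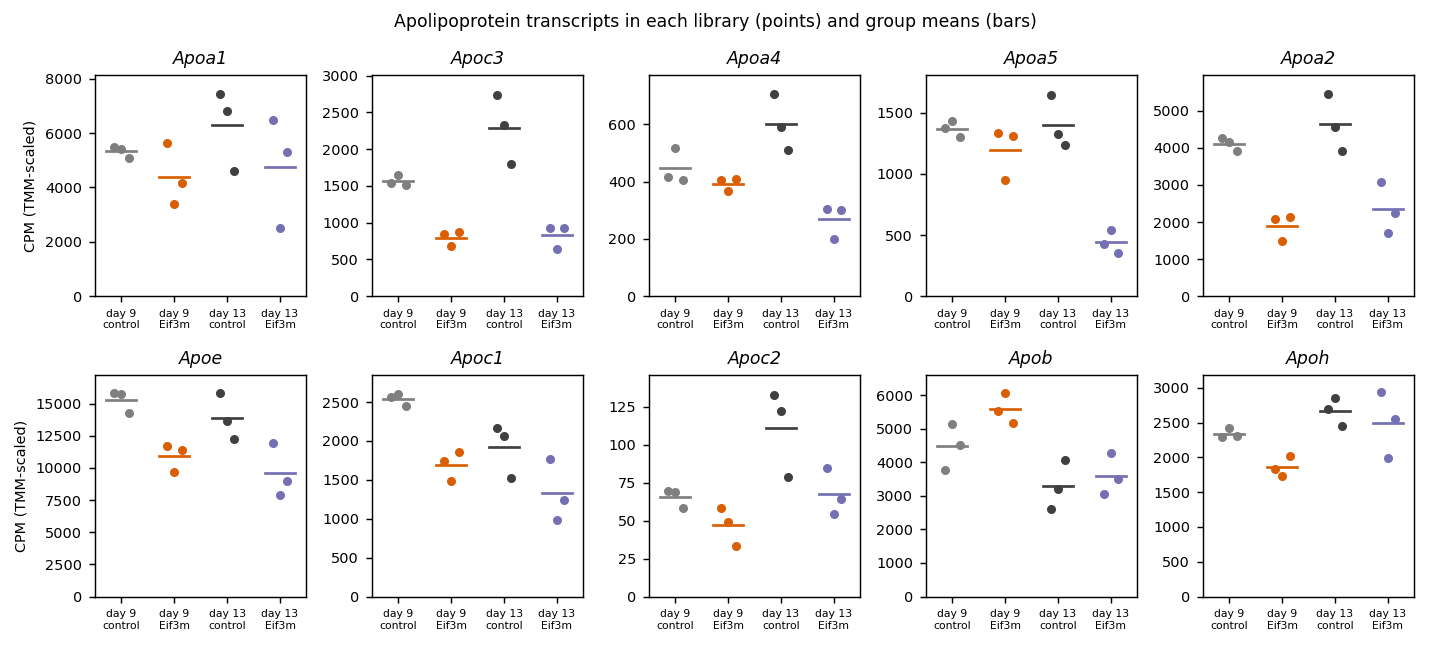
The level of each apolipoprotein transcript in every library, in TMM-scaled CPM, for the 4 groups of 3 libraries, with points for libraries and horizontal bars for group means. Apoa5 siRNA libraries at day 13 lie at 353 to 541 CPM, under day 13 controls of 1234 to 1643, while at day 9 the groups overlap.

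A ratio of 2 neighbouring genes in the same library does not depend on how that library was scaled. Of 10 ratios chosen after the members' values were seen, 20 comparisons were made over the 2 days, and no exact permutation test of 3 against 3 can give a p below 0.1. Apoc3 over Apoa1 was 0.293 ± 0.0128 in day 9 controls and 0.186 ± 0.0321 with the siRNA (SD, n = 3), and 0.366 ± 0.0230 against 0.192 ± 0.0598 at day 13. At both days every siRNA library was below every control (exact two-sided permutation p = 0.1, Benjamini-Hochberg 0.25). Apoa4 over Apoa1 and Apoa5 over Apoa1 were 0.0974 and 0.227 in day 13 controls and 0.0616 and 0.116 with the siRNA. The Apoa4 ratios were separate, while siRNA library 2, one of the libraries that stood apart, overlapped the controls for Apoa5 over Apoa1 at 0.217. Apoc3 over Apoa5 was 1.14 in day 9 controls and 0.672 with the siRNA, with no overlap, and overlapped at day 13.

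**Figure D3:**
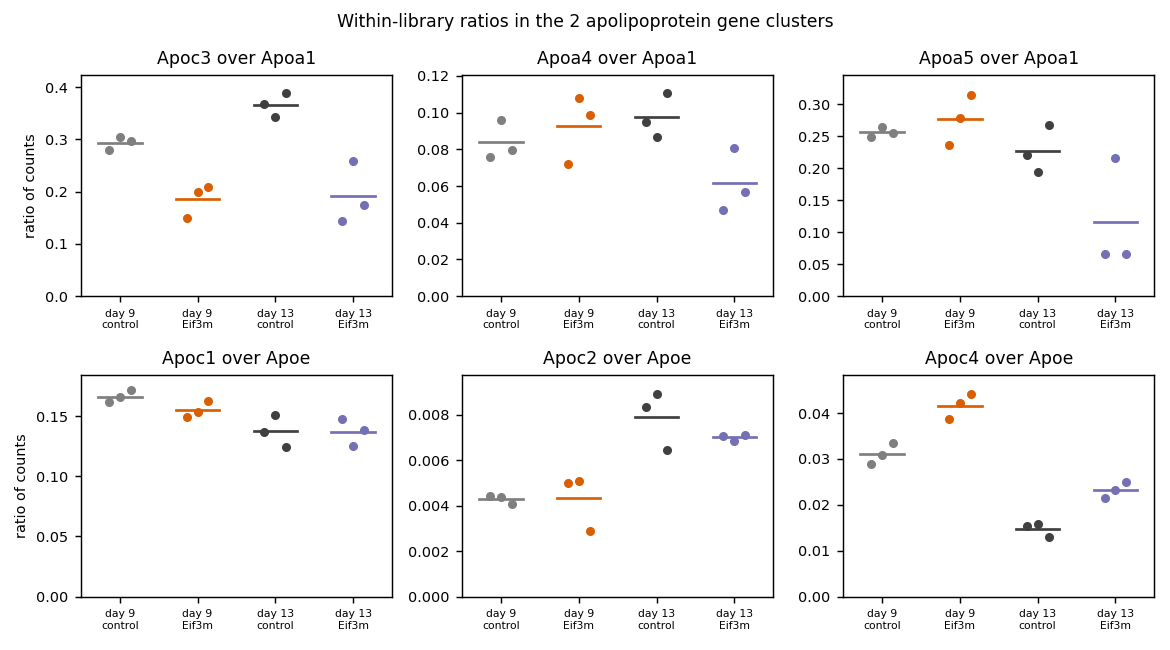
Ratios of counts within each library for pairs of neighbouring genes in the chromosome 9 cluster (top row, over Apoa1) and the chromosome 7 cluster (bottom row, over Apoe), with points for libraries and bars for group means. Apoc3 over Apoa1 is lower in all siRNA libraries at both days, and Apoc4 over Apoe is higher in all of them.

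The flanking genes of the chromosome 9 cluster, chosen by position after their values were seen, were not called lower. Zpr1, a zinc finger protein gene beyond Apoa5, rose from 35.4 ± 2.81 to 58.9 ± 6.94 CPM (SD, n = 3) at day 9 and from 39.0 ± 3.53 to 64.1 ± 1.82 at day 13 (adjusted p = 0.00114 and 0.000678 by edgeR). The kinase gene Sik3 at the other end had a log2 fold change of 0.05 and 0.15 at the 2 days, and Bud13, a splicing factor gene beyond Zpr1, of -0.15 and 0.02, and none of these 4 values was called.

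Apoa2, the second protein of HDL, is alone on chromosome 1 at chr1:171225054-171226379. Its control libraries at day 9 held 4261, 4151 and 3907 CPM and the siRNA libraries 2080.0, 1486.99 and 2137. At day 13 the controls held 5442, 4576 and 3903 CPM and the siRNA libraries 3090.3, 1694 and 2234. No siRNA library reached the lowest control at either day. In log2 units the effect came to -1.11 (SE 0.21, adjusted p = 0.00375 by edgeR) at day 9 and -0.99 (SE 0.21, adjusted p = 0.00345 by edgeR) at day 13. The effect at the 2 days differed by 0.12 (SE 0.29, adjusted p = 0.873 by edgeR), whose sign turned to -0.16 when the length trend was removed. Nr1i3, which encodes the nuclear receptor CAR and lies upstream of Apoa2, also fell, with log2 fold changes of -1.07 and -1.13 (adjusted p = 0.0273 and 0.0143 by edgeR).

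Apoe, Apoc1, Apoc4 and Apoc2 form the second cluster, on the minus strand of chromosome 7, where Apoe spans chr7:19696109-19699188, Apoc1 chr7:19689481-19692660 and Apoc2 chr7:19671579-19677941. Apoe stood at 15811, 15744 and 14255 CPM in day 9 controls and at 11701, 9655 and 11417 with the siRNA. At day 13 it stood at 15866, 13683 and 12213 CPM in controls and at 11964, 7891 and 8985 with the siRNA. All siRNA libraries were below all controls at both days, by a narrow gap at day 13. Relative to control the log2 change was -0.48 at day 9 (SE 0.16, adjusted p = 0.0652 by edgeR) and -0.53 at day 13 (SE 0.16, adjusted p = 0.028 by edgeR). The day 13 call was lost without day 13 control 1 (adjusted p = 0.115) or 2 (0.0564), or day 13 siRNA 2 (0.084) or 3 (0.1), and when day 13 was fitted alone (0.0907).

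Apoe is also a product of macrophages. Of 11 Kupffer cell markers (liver macrophages), 1 was called higher and 4 lower at day 9, and 10 lower at day 13. Their summed level was 538 to 671 CPM in day 9 controls and 570.3 to 659 with the siRNA, and 585 to 663 against 314 to 399.8 at day 13. Of 13 tested monocyte and macrophage markers 3 were called higher at day 9 and 4 lower at day 13, with sums of 72.7 to 91.4 against 147 to 169.5 CPM at day 9 and 151 to 201 against 103 to 119 at day 13. Of 10 liver endothelial markers 1 was called higher at day 9 and 3 lower at day 13, and of 12 stellate cell markers 1 higher and 1 lower at day 9 and 5 lower at day 13. Over all genes tested, 12.8% were called at day 9 and 23.7% at day 13. None of the 11 Kupffer cell markers was at 0 in all libraries of a group, and their part in the Apoe result was not tested.

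Apoc1, an inhibitor of remnant uptake, ranged from 2446 to 2607 CPM in day 9 controls and from 1481 to 1854 with the siRNA, without overlap. At day 13 it ranged from 1520 to 2171 CPM in controls and from 986 to 1771 with the siRNA, with overlap. Its log2 fold change of -0.58 (SE 0.19, adjusted p = 0.0626 by edgeR) at day 9 and of -0.52 (SE 0.19, adjusted p = 0.0633 by edgeR) at day 13 missed the threshold. It passed in 9 of 24 alternatives at day 9 and in 7 of 24 at day 13. Apoc1 over Apoe was 0.166 ± 0.0049 in day 9 controls and 0.155 ± 0.00679 with the siRNA, and 0.137 ± 0.0131 and 0.137 ± 0.0116 at day 13 (SD, n = 3), with overlap at both days.

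Apoc2, the cofactor of lipoprotein lipase, was the least abundant member. It ranged from 58.1 to 69.7 CPM in day 9 controls and from 33.1 to 58.4 with the siRNA, and at day 13 from 79.0 to 133 in controls and from 54.2 to 84.6 with the siRNA. The groups overlapped at both days. The log2 effect of the siRNA was -0.48 (SE 0.23, adjusted p = 0.196 by edgeR) at day 9 and -0.72 (SE 0.24, adjusted p = 0.0424 by edgeR) at day 13. The day 13 call was lost in 10 of 24 alternatives, among them leaving out day 9 control 1 or 2, day 9 siRNA 2, day 13 control 1 or 2 or day 13 siRNA 2 or 3, with adjusted p between 0.0121 and 0.154 over single libraries left out. Its value is also uncertain because of Gm44805, a read-through gene that shares exons with Apoc2 and Apoc4. Gm44805 took 20.2 CPM in day 9 controls, beside 65.6 for Apoc2. With the siRNA at day 9 it took 8.81, 8.17 and 34.9 CPM. The last was siRNA library 3, where Apoc2 was lowest, at 33.1 CPM. At day 13 Gm44805 took 0.237 CPM in controls and 4.35 with the siRNA.

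Apoc4, which lies between Apoc2 and Apoc1, had log2 fold changes of -0.06 and 0.10 (adjusted p = 0.839 and 0.7 by edgeR). Its ratio to Apoe was 0.0311 ± 0.00226 in day 9 controls and 0.0416 ± 0.00276 with the siRNA, and 0.0148 ± 0.0015 against 0.0232 ± 0.00169 at day 13 (SD, n = 3). Every siRNA library was above every control at both days (exact two-sided permutation p = 0.1, Benjamini-Hochberg 0.25 over the 20 ratio comparisons). Among the genes flanking this cluster, Tomm40, a mitochondrial import pore gene, and Clptm1 rose at day 13, with log2 fold changes of 0.57 and 0.33 (adjusted p = 0.00641 and 0.0135 by edgeR).

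Apob, the largest member, with a principal transcript of 13934 bases, spans chr12:7977648-8016835. It stood at 3780.45, 5139 and 4517 CPM in day 9 controls and at 5532, 6061 and 5174 with the siRNA. At day 13 it stood at 2621, 3216 and 4073 CPM in controls and at 3049, 4270.0 and 3497 with the siRNA. The day 9 groups were separate, by a narrow gap, with siRNA higher, and the day 13 groups overlapped. As a log2 ratio to control this was 0.32 (SE 0.18, adjusted p = 0.267 by edgeR) at day 9 and 0.13 (SE 0.18, adjusted p = 0.658 by edgeR) at day 13. The day 13 value turned to -0.01 without day 13 control 1 and to -0.02 without day 13 siRNA 2. Within libraries, Apoa1 over Apob was 1.21 ± 0.214 in day 9 controls and 0.795 ± 0.23 with the siRNA (SD, n = 3), with no overlap (exact two-sided permutation p = 0.1, Benjamini-Hochberg 0.25 over the 20 ratio comparisons), and overlapped at day 13 (exact p = 0.5).

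Apoh, a phospholipid-binding plasma protein also called beta-2-glycoprotein, spans chr11:108343354-108414396. It ranged from 2293 to 2427 CPM in day 9 controls and from 1733 to 2015 with the siRNA, without overlap, and at day 13 from 2444 to 2850.5 in controls and from 1996 to 2945 with the siRNA. Neither the log2 fold change of -0.33 (SE 0.14, adjusted p = 0.143 by edgeR) at day 9 nor that of -0.09 (SE 0.14, adjusted p = 0.679 by edgeR) at day 13 was called. Its exons overlap those of Prkca on the other strand, which stood at 17.9 CPM in day 9 controls.

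Over the 10 members, the groups did not overlap for 5 members that were lower and 1 that was higher with the siRNA at day 9, where 21.0% of all genes tested were lower without overlap and 22.5% higher. At day 13, 5 members were lower without overlap, where 16.0% of all genes were, and 0 were higher. The difference of effects between days was called for 2 members, both with a stronger fall at day 13, where 2.55% of all genes were called, 1.66% in that direction and 0.898% in the other. The 2 days have separate controls.

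The values of the members moved with a trend over transcript length that differed between libraries. The slope of each library against the mean of its day, in log2 units per doubling of exon length over 3675 genes, was 0.133 for day 13 control 3 and 0.141 for day 13 siRNA 2, and between -0.115 and -0.041 for the other 4 day 13 libraries. At day 9 it ran from -0.038 to -0.002 in controls and from -0.011 to 0.063 with the siRNA, so that siRNA library 2 had the highest slope at both days. In the 2 day 13 libraries with high slopes, Apob was the highest of its group. Apoa1, Apoa2, Apoa4, Apoc1, Apoc2, Apoc3, Apoe and Apoh were the lowest of theirs in both. Apoa5 was the lowest of its group in day 13 control 3 and the highest in day 13 siRNA 2. With the trend removed, a setting chosen after the data were seen, 4 members were called at day 9, 7 at day 13 and 3 for the difference between days. Of all 14222 genes tested in that setting, 2323, 3922 and 660 were called. The fall of Apoa2 and Apoc3 at day 9 and of Apoa2, Apoa4, Apoa5 and Apoc3 at day 13 was called there too.

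**Figure D4:**
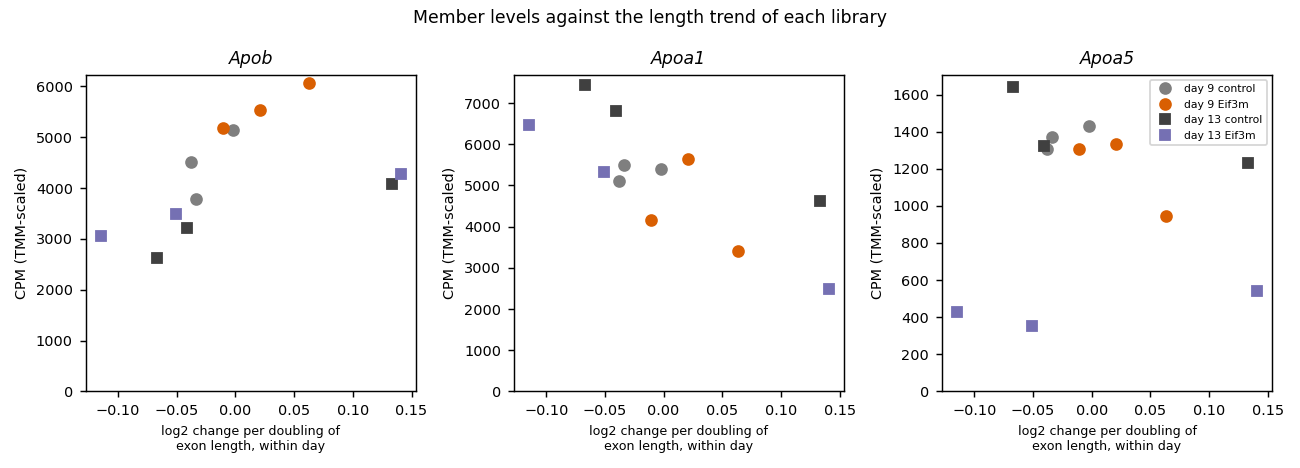
The level of Apob, Apoa1 and Apoa5 in CPM against the length trend of each library (log2 change per doubling of exon length, within day), with circles for day 9, squares for day 13 and colours for the 4 groups. The 2 day 13 libraries at 0.133 and 0.141 lie high for Apob and low for Apoa1, while for Apoa5 the 3 day 13 siRNA libraries lie under all others.

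Levels of different genes were compared per kilobase of the principal transcript. The length trend above was not removed from these levels. Apob, at 13934 bases, was set beside transcripts of 518 to 2515 bases, so its place in the order is uncertain. In day 9 controls the order was Apoe at 10845 ± 625 CPM per kilobase (SD, n = 3), Apoa2 at 7928 ± 350.0, Apoa1 at 5155 ± 205, Apoc1 at 4769 ± 156, Apoc3 at 2975 ± 138, Apoh at 1967 ± 63.2, Apoa5 at 544 ± 25.4, Apob at 321 ± 48.8, Apoa4 at 246 ± 34.0 and Apoc2 at 90.2 ± 8.97. The ranges of neighbours in that order overlapped only for Apob and Apoa4. With merged exon lengths Apoe was 0.934 times Apoa2 in place of 1.37 times, so their order rests on the transcript chosen, as does that of Apoc3 and Apoc1 in day 13 controls and of Apoa1 and Apoa2 with the siRNA at day 13. In day 13 controls the ranges of Apoe and Apoa2 overlapped, at 8674 to 11268 and 7535 to 10506 CPM per kilobase, and Apoc3 stood before Apoc1, an order that merged lengths turn (2253 and 2577 CPM per kilobase). With Eif3m siRNA the mean of Apoa1 stood before that of Apoa2 at both days, with overlapping ranges; with merged lengths Apoa2 stood first at day 13, at 4356 against 3855. With either length, Apob with the siRNA at day 13, at 219 to 306 CPM per kilobase of principal transcript, stood before Apoa5, at 140.5 to 214.9.

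The makeup of the pool of apolipoprotein transcripts was described and not tested. Of the summed level per kilobase, Apoa2 was 22.8% in day 9 controls and 15.8% with the siRNA, and 24.6% against 19.7% at day 13. Apoc3 was 8.54% and 6.57% at day 9, and 11.9% and 7.06% at day 13. Apoe was 31.1% and 33.7% at day 9 and 27.3% and 30.3% at day 13, the largest part in every group by principal transcript, while with merged lengths Apoa2 was larger in the controls, at 28.6% against 26.7% at day 9 and 30.9% against 23.3% at day 13. As a share of all counts the members summed to 3.71% ± 0.189 in day 9 controls and 3.05% ± 0.216 with the siRNA, and to 3.48% ± 0.295 and 2.59% ± 0.291 at day 13 (SD, n = 3; exact two-sided permutation p = 0.1 at each day, the smallest that 3 against 3 can give).

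Markers of hepatocytes, the cells that make most of these proteins, did not move as 1 group. Of 11 tested, 1 was called higher and 1 lower at day 9, and 2 higher and 3 lower at day 13. Their summed level, most of it albumin, was 128035 to 135745 CPM in day 9 controls and 110513 to 118354 with the siRNA, and 190991 to 220375 against 121209 to 188166 at day 13. The secreted protein transthyretin, Ttr, fell at both days by 0.72 and by 0.63 on the log2 scale (adjusted p = 0.016 and 0.0171 by edgeR), while Pck1, a gluconeogenic enzyme, rose to 283% of control at day 9 (adjusted p = 0.000816 by edgeR) and Cps1, a urea cycle enzyme, to 167% at day 13 (adjusted p = 0.0132 by edgeR). At day 13 the albumin gene Alb fell to 63.3% of control and Hp to 63.4%, while Serpina1c rose to 157% (adjusted p = 0.01025, 0.0144 and 0.0286 by edgeR). At day 9 Alb was at 76.1% and Hp at 132%, neither called. Over all genes tested, 12.8% were called at day 9 and 23.7% at day 13. The part of these markers in the members' results was not tested.

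In a list of other genes named as apolipoproteins or linked to lipoproteins, Clu, Apol7a, Apol9b and Apof fell at both days and Saa4 and Apol9a at day 13. The Apol genes are listed by family name, and whether their proteins are carried on lipoproteins was not examined. Of 11 in the list, 10 were tested. By edgeR 4 were called lower at day 9 and 6 at day 13, where 6.84% and 10.9% of all genes were. None was called higher (0 at an unadjusted p under 0.05 at both days), where 5.94% and 12.8% of all genes were. The median log2 fold change was -0.38 at day 9 and -0.76 at day 13, beside 0.02 and 0 over all genes tested. Clu, a chaperone carried on HDL, was 63.2% and 51.9% of control (log2 fold change -0.66 and -0.95, adjusted p = 0.0039 and 0.000132 by edgeR). Apol9b, of the apolipoprotein L family, was 59.3% and 28.2% of control, and Apof was 70.9% and 63.0%, all called. Apol7a, of the same family as Apol9b, was 64.4% and 48.1% of control, called at both days, and Apol9a was called at day 13 at 41.4%. Apol9a and Apol9b are near-identical copies that counting can split, so their values are uncertain. The remaining 4, Apoc4, Apom, Apon and Apobr, which encodes a receptor, were not called at either day. Their log2 fold changes at day 9 and day 13 were -0.06 and 0.10 for Apoc4 and -0.25 and -0.36 for Apom. For Apon they were -0.18 and -0.24, and for Apobr 0.40 and -0.43. Apobr was scarce, at 0.854 CPM in day 9 controls. Saa4, a constitutive HDL protein, was called at day 13 alone, at 55.4% of control, and its difference between days was not called (adjusted p = 0.089 by edgeR).

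Assembly and secretion of VLDL rest on the transfer protein Mttp, editing of Apob RNA by Apobec1, and export from the endoplasmic reticulum. Of 19 genes of these steps, 0 were called at day 9 by edgeR, where 12.8% of all genes were. At that day 4 were at an unadjusted p under 0.05, and 3 were called by DESeq2 and 2 by limma-voom. At day 13, 1 was called higher and 3 lower, where 12.8% of all genes were called higher and 10.9% lower. Mttp itself was at 106% and 93.2% of control and was not called. Apobec1 rose to 180% of control at day 13 (adjusted p = 0.0177 by edgeR), from 7.54 ± 2.52 to 13.6 ± 3.34 CPM (SD, n = 3). Mia3, a cargo receptor for large secreted particles, fell to 64.4% (adjusted p = 0.000626 by edgeR), as did Tmem41b, which acts in VLDL lipidation, to 62.4%.

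Of 15 genes that remodel lipoproteins in plasma, 1 was called higher and 5 lower at day 9, and 1 higher and 7 lower at day 13. The shares over all genes were 5.94% higher and 6.84% lower at day 9, and 12.8% higher and 10.9% lower at day 13. Lpl, lipoprotein lipase, was the gene that rose, from 11.4 ± 1.45 to 21.2 ± 2.09 CPM at day 9 and from 37.4 ± 15.3 to 76.3 ± 7.1 at day 13 (SD, n = 3; adjusted p = 0.0168 and 0.0043 by edgeR). Lipc, hepatic lipase, fell to 63.9% and 43.8% of control (adjusted p = 0.00809 and 6.35e-05 by edgeR). Pltp, which moves phospholipids between particles, fell to 60.3% and 50.7%, and Gpld1, an HDL-borne phospholipase, to 74.9% and 61.0%, both called at both days.

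Of 17 tested receptors and their regulators, 2 were called lower at day 9 and 6 at day 13, where 6.84% and 10.9% of all genes were. By edgeR 0 were called higher, where 5.94% and 12.8% of all genes were, and 1 was higher at an unadjusted p under 0.05 at each day. DESeq2 called 0 higher at day 9 and 1 at day 13, and limma-voom called 0 at both. Lrp5, a co-receptor of Wnt signals, was called at day 13 at 65.6% of control (adjusted p = 0.00159 by edgeR), from 97.2 ± 9.68 to 63.7 ± 2.48 CPM (SD, n = 3).

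Among 11 genes of sterol handling and efflux, 1 was called higher at day 9, where 5.94% of all genes were called higher and 6.84% lower. At day 13, 3 were called higher and 3 lower, where 12.8% and 10.9% of all genes were. Abcb4, the phospholipid exporter of the bile canaliculus, rose to 144% and 149% of control (adjusted p = 0.0112 and 0.00345 by edgeR). Soat2, which esterifies cholesterol for VLDL, and Npc1, which releases it from lysosomes, rose at day 13 to 215% and 174% (adjusted p = 0.000233 and 0.000626 by edgeR). Abca1, which lipidates Apoa1, was at 128% and 95.3% and was not called.

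Of 26 transcription regulators of apolipoprotein genes, 2 were called lower at day 9, and 1 higher and 2 lower at day 13. Hnf4a, a nuclear receptor known to drive many of the members, had log2 fold changes of 0.19 (SE 0.12) and -0.03 (SE 0.12) and was not called (adjusted p = 0.317 and 0.898 by edgeR). Srebf1, a regulator of lipid synthesis, fell to 57.9% and 41.8% of control (adjusted p = 0.00616 and 0.000119 by edgeR). Ppargc1a, a coactivator, was called at day 9 at 67.5%, and Foxa2, a liver forkhead factor, at day 13 at 51.7%. Rora, a nuclear receptor known to activate Apoa5 and Apoc3, rose at day 13 to 173% (adjusted p = 0.0259 by edgeR). Over all 6 lists, of 98 genes tested, 2 were called higher and 13 lower at day 9, and 6 higher and 27 lower at day 13. Of all genes tested, 5.94% were called higher and 6.84% lower at day 9, and 12.8% higher and 10.9% lower at day 13. For the difference between days 0 of the 98 were called by edgeR, with 19 at an unadjusted p under 0.05 and 9 by DESeq2. For that difference edgeR called 2.55% of all genes.

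**Figure D5:**
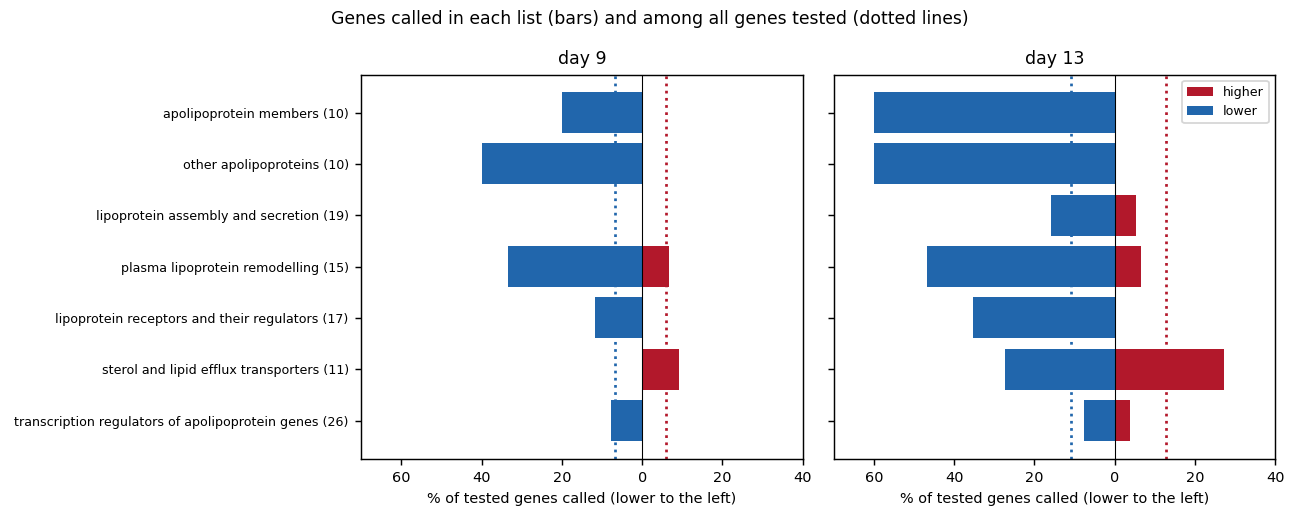
The percent of tested genes called higher (red, to the right) or lower (blue, to the left) at day 9 and day 13 in the apolipoprotein members and 6 lists of lipoprotein metabolism, with the number tested in brackets and dotted lines for all genes tested. Of the 10 members, 6 were called lower at day 13, where 10.9% of all genes were.

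Over the 12 libraries with the mean of each day removed, levels of the 9 members other than Apob correlated positively with each other on the log2 scale, and Apob negatively with all 9. Pearson's r between Apoe and Apoa2 and between Apoe and Apoc1 was 0.98, between Apoa2 and Apoc3 0.95, between Apoa5 and Apoa1 0.40, between Apoa4 and Apoh 0.52 and between Apoa5 and Apoh 0.24, the lowest of these pairs. Apob had r between -0.81 and -0.30 with the other 9. These libraries share the siRNA effect and the length trend, so the values are a description. The gene most like each member by this measure was Gstp3 for Apoa2 (r = 0.994), Gstt1 for Apoc3 (0.993), Usp9x for Apob (0.992), Grcc10 for Apoc1 (0.987), H2-Ke6 for Apoe (0.98), Dpm1 for Apoa1 (0.973), Psap for Apoa4 (0.967), Dnajc19 for Apoh (0.967), Tbc1d23 for Apoa5 (0.966) and Calm3 for Apoc2 (0.911).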

How the data were processed

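RNA from ground livers was sequenced in 12 libraries. The authors deposited estimated counts per Ensembl gene, all whole numbers; per the submitters' processing notes STAR 2.5.3a, RSEM 1.3.0 and mm10 were used. Rows without a symbol (310 genes, 0.0308% of counts) stayed in the scaling and the fit, but could not be matched to members or lists. Groups and the table's columns were taken from the sample titles. edgeR 4.0.16 (R 4.3.3) was run with TMM scaling, filterByExpr (minimum count 10) and a robust quasi-likelihood model with 4 group means over all 12 libraries, giving the siRNA effect at each day and their difference. CPM values are TMM-scaled. Gene models and lengths are from GENCODE M21. Named genes were all members and the called genes of the other apolipoprotein list. Up to 3 called genes per pathway list and day, and up to 2 per marker list and day, with the smallest p were also named. The gene most like each member (mean of at least 5 CPM) was named too. Neighbouring genes, Mttp, Abca1, Hnf4a, Hp and Serpina1c were added after their values were seen. The members and lists were chosen with earlier results of these data known. Same-numbered libraries did not deviate together, so replicate numbers were not used as a block. No libraries were duplicates. Alternatives used DESeq2 1.42.0 and limma 3.58.1; the script was tested on simulated data. Libraries held fewer counts at day 13, and day 9 was thinned to that depth as an alternative. Some genes that the rule names are not reported here.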

Additional observations from a re-analysis of the deposited data

Results flagged for a closer look

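The siRNA effect differed between day 9 and day 13 for 2 members, 9 markers of other liver cells and 1 hepatocyte marker. The test was edgeR's test of the difference (day 13 minus day 9, log2 scale), which called 2.55% of all genes. Day and library kit cannot be told apart here. For the members the difference was -0.98 for Apoa4 (adjusted p = 0.0472) and -1.47 for Apoa5 (adjusted p = 0.00916). The Apoa4 call was lost in 13 of 23 alternatives. The hepatocyte marker Hp differed by -1.06 (adjusted p = 0.0421), with log2 fold changes of 0.40 at day 9 and -0.66 at day 13. Among macrophage genes it was -2.00 for the lysozyme gene Lyz2 (adjusted p = 0.000664), -1.53 for Adgre1 (adjusted p = 0.00536), -1.64 for the chemokine receptor gene Ccr2 (adjusted p = 0.0461) and -1.22 for Cd14 (adjusted p = 0.0477). The Kupffer cell marker Slc40a1, an iron exporter, differed by -1.11 (adjusted p = 0.00863), and it and the collagen gene Col1a1, which differed by -2.34 (adjusted p = 0.0362), are named here after their values were seen. Lyz2 rose at day 9, with a log2 fold change of 1.26, and fell at day 13, with -0.74. The endothelial gene Lyve1 differed by -2.07 (adjusted p = 0.00311) and the stellate cell collagen gene Col3a1 by -1.70 (adjusted p = 0.0209). Sox9, a cholangiocyte gene, differed the other way, by 1.71 (adjusted p = 0.00737), and was 403% of control at day 13.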

How the results depend on the processing

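The falls of Apoa2 and Apoc3 at day 9 and of Apoa2, Apoa4, Apoa5 and Apoc3 at day 13 were called in all 24 alternatives run, and the Apoa5 difference between days in all 23. The cause of the changes below was not tested. Of the members, 2 were called at day 9, and 4 with DESeq2, 4 with limma-voom, 5 with each day fitted alone, 5 without both libraries that stood apart, 4 with the length trend removed and 2 to 4 leaving out single libraries. Over all genes, calls at day 9 moved from 1821 of 14248 tested to 2599 with DESeq2 and 2749 with limma-voom. They were 3412 of 14817 with each day fitted alone, 3050 of 15591 without both libraries that stood apart and 2323 of 14222 with the length trend removed. At day 13, 6 members were called, and 4 to 7 leaving out single libraries, beside 3377 of all genes and 2299 to 3288. At that day 7 were called with DESeq2, 5 with limma-voom and 4 with each day fitted alone, beside 3806, 2718 and 2014 of 11964 genes. Without both libraries that stood apart 7 were called, and 7 with the length trend removed, beside 3118 of 15591 and 3922 of 14222 genes. For the difference between days 2 members were called, and 1 with DESeq2 size factors, 1 with day 9 thinned to day 13 depth and 1 to 2 leaving out single libraries. Over all genes the difference was called for 364, for 342 with DESeq2 size factors and for 220 with day 9 thinned. Of the other 98 genes, 15 were called at day 9, and 29 with DESeq2, 26 with limma-voom, 30 with each day fitted alone, 34 without both libraries that stood apart and 5 to 25 leaving out single libraries; without day 9 siRNA 2 there were 5, without day 9 siRNA 1 there were 8, without day 9 control 3 there were 7, and without day 13 siRNA 2 there were 25. At day 13 they were 33, and 27 to 35 leaving out single libraries and 27 to 41 over all alternatives. For the difference between days 0 were called, and 9 with DESeq2, 1 without both libraries that stood apart, 4 with the length trend removed and 0 to 2 leaving out single libraries. Over all genes that difference was called for 991 with DESeq2 and for 660 with the length trend removed. With the replicate number as a block, 1 member and 1 of the other genes were called for the difference between days; the pairs' deviations correlated between -0.146 and 0.221. Signs turned only for effects that were not called. Leaving out single libraries, the difference between days ran from -0.40 to 0.18 for Apoa1, from -0.12 to 0.31 for Apoa2, from -0.19 to 0.23 for Apoc1 and from -0.23 to 0.07 for Apoe, and the day 13 effect from -0.02 to 0.29 for Apob and from -0.22 to 0.03 for Apoh. With the length trend removed the difference was -0.16 for Apoa2 and -0.16 for Apoc1, and without both libraries that stood apart 0 for Apoa1. With merged exon lengths the Apoe level was 0.934 times that of Apoa2. Over all genes, upper-quartile scaling moved the day 13 calls to 1574 higher and 1808 lower, with a median of -0.05. Depth was lower at day 13, where Apoc2, the scarcest member, held 585 to 987 counts per library; with day 9 thinned to that depth, 2 members were still called at day 9.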
